A study of Mus musculus with 2 samples.

Results

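Among the enrichment peaks of mouse embryonic stem cells with a hairpin against Dnmt3L, 561 were at least 5 kb wide and overlapped no peak of the control cells. They were chosen by their measured width, 5000 bp or more, and by the absence of even 1 bp of overlap with a control peak. They made up 1.23% of the 45579 peaks of the knockdown list, from which all were taken. Both lists together held 100871 peaks. Width and lack of overlap are therefore the terms of the choice and are given as a description.

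The series compared E14 cells, an established line of mouse embryonic stem cells, transfected with shDnmt3L or with shGFP, a hairpin against a protein that these cells do not make. Each group held 1 library, the culture was the same cell type in both, and the level of Dnmt3L itself was not analysed here. Each library is represented by its authors' list of peaks, 45579 for shDnmt3L and 55292 for shGFP, with read depth not given in the sources used here. Without replicates, no value has an error between cultures, and the differences describe these libraries only. It is unsettled which mark was captured: the samples are titled MeDIP and the series text names 5-methylcytosine, whereas the protocol describes a collector kit for 5-hydroxymethylcytosine, so the regions are called enrichment peaks.

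Dnmt3L is a relative of the DNA methyltransferases that lacks their catalytic activity and acts by binding Dnmt3a and Dnmt3b, the enzymes that methylate new sites. Methylation in mammals sits mainly on cytosines followed by guanine (CpG), and TET enzymes oxidise it to 5-hydroxymethylcytosine. Many genes of embryonic patterning, among them the Hox, Pax and Dlx families, lie in long stretches rich in CpG that Polycomb complexes occupy in embryonic stem cells, where these genes are mostly silent.

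The 4 widest peaks without a control overlap lay at Cbx8, Pax2, Pax7 and Onecut1. The 250 bases before the start of each gene are shown because methylation sits mainly on CpG. The sequences are those of RefSeq on GRCm38.p6, read 5′ to 3′ on the strand of the gene, with each CpG in capitals. They come from chr11:119040914-119041163 (minus strand) for Cbx8, chr19:44746351-44746600 (plus strand) for Pax2, chr4:139832969-139833218 (minus strand) for Pax7 and chr9:74861671-74861920 (plus strand) for Onecut1.
Cbx8: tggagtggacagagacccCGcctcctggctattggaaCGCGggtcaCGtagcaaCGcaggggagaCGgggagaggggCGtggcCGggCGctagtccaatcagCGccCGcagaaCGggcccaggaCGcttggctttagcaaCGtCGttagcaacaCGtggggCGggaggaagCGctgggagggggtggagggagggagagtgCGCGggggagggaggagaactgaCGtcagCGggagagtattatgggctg
Pax2: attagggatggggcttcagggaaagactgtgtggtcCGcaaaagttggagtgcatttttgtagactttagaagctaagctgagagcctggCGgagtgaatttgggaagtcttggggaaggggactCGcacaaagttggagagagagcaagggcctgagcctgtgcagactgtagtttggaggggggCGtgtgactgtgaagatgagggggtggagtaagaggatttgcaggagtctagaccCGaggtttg
Pax7: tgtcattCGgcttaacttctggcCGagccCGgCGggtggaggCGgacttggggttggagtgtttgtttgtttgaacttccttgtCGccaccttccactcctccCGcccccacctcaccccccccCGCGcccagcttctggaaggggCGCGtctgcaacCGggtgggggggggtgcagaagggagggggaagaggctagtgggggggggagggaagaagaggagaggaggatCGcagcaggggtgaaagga
Onecut1: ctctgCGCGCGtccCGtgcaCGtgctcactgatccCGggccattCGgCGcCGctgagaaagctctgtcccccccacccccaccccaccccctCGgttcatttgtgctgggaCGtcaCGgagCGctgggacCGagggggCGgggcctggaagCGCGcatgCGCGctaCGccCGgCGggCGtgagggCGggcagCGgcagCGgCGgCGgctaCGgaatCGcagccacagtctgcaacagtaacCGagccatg
The motif searched was CG, which reads the same on both strands. It occurred 22 times before Cbx8, 5 times before Pax2, 13 times before Pax7 and 31 times before Onecut1. Of 27018 promoters of the same length, 91.7% held at least 1, and 14.6%, 55.5%, 31.9% and 4.93% held at least as many as Cbx8, Pax2, Pax7 and Onecut1. Of the 82 genes named under peaks 57 had a promoter in the table, too few for a comparison of CpG over all of them. The peaks are on the older build mm9, so whether these bases lie under them was not determined.

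Gene names given to peaks are from general knowledge of the mm9 map and not from an annotation of that build, which was not used here. A name therefore says that the peak lies at a known locus, not which exon, intron or promoter it covers. Of the names considered, 16 were dropped because they were uncertain or were out of place in a gene table of GRCm38. The 82 names kept were all on the chromosome of their peak, and 279 of 279 pairs at different peaks were in the order of the table. Since misplaced names had been removed first, and recalled positions had been compared with the same table, this agreement is no independent check, and the names remain to be checked on mm9. In all 77 of the 561 peaks carry a name, so an unnamed peak is not one without a gene. Of these 77, 66 were 10 kb or more wide, a width that 104 of the 561 reached. Wide peaks with a control overlap were not named, so the named loci cannot be called particular to the 561.

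Lack of control overlap, which is part of the choice, is given here by width as a description. Of all 45579 shDnmt3L peaks 12.6% overlapped no shGFP peak, against 23.7% of the 2363 peaks of 5 kb or more (561 peaks, Wilson 95% interval 22.1 to 25.5%). Among the 43216 narrower shDnmt3L peaks the share was 11.9% (11.6 to 12.3%). These intervals, and the Poisson interval of 515.5 to 609.4 on the number 561, cover counting error only. The share without overlap was 20.8% from 5 to 7.5 kb, 25.6% from 7.5 to 10 kb, 41.4% from 10 to 15 kb and 52.6% from 15 to 20 kb, and it was 9 of 25 peaks at 20 kb or more. In the other direction, 3 of 742 shGFP peaks of 5 kb or more overlapped no shDnmt3L peak (0.404%, 0.138 to 1.18%). Among narrow shGFP peaks such cases were many, 57.9% of those below 1 kb. Peaks were wider in general in the shDnmt3L list, with a median of 2376 bp against 1998 bp in the shGFP list, and the part of this in the counts above was not tested.

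**Figure D1:**
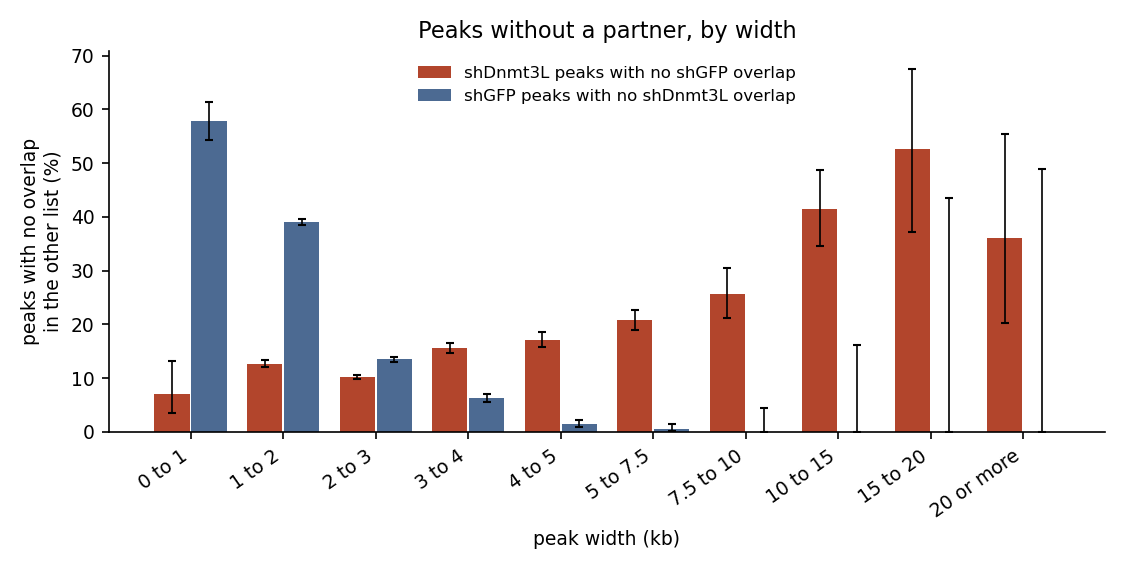
Percentage of peaks with no overlap in the other list, by peak width in kb, for shDnmt3L and shGFP, with Wilson 95% intervals. In shDnmt3L the share reaches 52.6% from 15 to 20 kb, and in shGFP it is 0.477% from 5 to 7.5 kb and 0 in every wider class.

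Most of the 561 peaks were near the lower limit of width. Their median width was 6481 bp (quartiles 5691 and 8811 bp), and 368 of them (65.6%) were below 7.5 kb. At the other end 104 (18.5%) were 10 kb or more, and 9 (1.60%) were 20 kb or more. Together they covered 4405 kb, or 3.54% of the length covered by the shDnmt3L list. They were 9.80% of the unshared peaks and held 24.8% of the bases in them.

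The limit of 5000 bp cut through a continuum. The narrowest peak inside it, chr9:79564155-79569162, spanned 5008 bp, scored 255.33 and lay 2211 bp from the nearest shGFP peak. The widest unshared peak outside it, chr9:64231765-64236759, spanned 4995 bp, scored 236.92 and lay 8513 bp away. The 5 nearest inside ran from 5008 to 5033 bp and the 5 nearest outside from 4975 to 4995 bp.

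Their scores, the value the authors' peak caller gave each peak, were high within the shDnmt3L list. The median was 365.8 (quartiles 270.63 and 574.57), at percentile 93.1 of that list, and the lowest was 99.1. The median of the narrower unshared peaks was 70.3. The 1802 wide peaks that did overlap a shGFP peak had a higher median, 409. The same order held within each class of width: the medians were 306 against 358 from 5 to 7.5 kb, 514 against 609 from 7.5 to 10 kb, 753 against 1005.5 from 10 to 15 kb and 1314 against 1892 at 15 kb or more, with the unshared peaks first. Width and score moved together, with a Spearman rho of 0.78 over the 561 peaks, which share 1 library. Since the 561 were chosen for width, their high rank and their higher median than the narrower unshared peaks are in part set by the choice.

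The peak with the largest width and score lay at Cbx8. It covered chr11:118894950-118922607, 27658 bp with a score of 2649.46, and the nearest shGFP peak was 2143 bp away. Cbx8 encodes a chromodomain subunit of Polycomb repressive complex 1. Within 50 kb on either side there were 9 other shDnmt3L peaks and 8 shGFP peaks, so this wide unshared peak stood among control peaks and not in a stretch free of them.

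Pax genes encode paired-domain transcription factors of organ and neural development. Pax2, which acts in kidney and the midbrain border, had at its locus a peak of 26236 bp with a score of 2008.02. Pax7, a factor of muscle stem cells, had a peak of 23721 bp with a score of 1764.98. The nearest shGFP peaks were 3542 bp from the Pax2 peak and 5052 bp from the Pax7 peak. Peaks at Pax3, Pax6 and Pax9 were 12910, 12431 and 12424 bp wide. Pax9 is needed for teeth and thymus, and its peak had 0 other shDnmt3L peaks and 1 shGFP peak within 50 kb on either side.

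Further homeobox genes among the 10 widest peaks were Onecut1, Dlx1 with Dlx2, Six3 and Lmx1b. Onecut1, a factor of liver and pancreas, had a peak of 23230 bp and a score of 1840.5, at 26367 bp from the nearest shGFP peak. The Dlx1 and Dlx2 pair, which acts in forebrain interneurons, had a peak of 21833 bp with a score of 1851.62, at 18555 bp. Six3, a factor of forebrain and eye, had 21633 bp, and the gap to the nearest shGFP peak was 307 bp. Lmx1b, a LIM homeobox factor of limb and kidney, had 21448 bp and a gap of 455 bp. These peaks were of similar width but lay at very different distances from the control peaks. Sim2, a bHLH-PAS factor, had 19282 bp. The 10 highest scores also included Lhx5 (18244 bp, 1761.99), Nr2e1 (18719 bp, 1469.06) and Hoxb2 (17148 bp, 1409.63).

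Secreted signals were present too, by names chosen after their values were seen. Shh, the hedgehog ligand of limb and neural tube, had a peak of 12012 bp. It had 0 shDnmt3L and 0 shGFP peaks within 50 kb on either side, and the nearest shGFP peak was 89690 bp away. Wnt1, a ligand of midbrain patterning, had 14109 bp at 12166 bp, and Dll1, a Notch ligand, had 17305 bp at 16775 bp. Igf2, an imprinted growth factor, had 10909 bp at 1989 bp. Pou3f2, a neural factor of the POU family, lay apart from control peaks: its 12896 bp stood in 1060 kb without a shGFP peak, and the nearest was 137452 bp away.

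The distance to the control peaks was short for most of the 561. The median was 7626 bp (quartiles 3400 and 16426 bp), 328 (58.5%) had a shGFP peak within 10 kb and 523 within 50 kb. A control peak lay within 500 bp of 16 (2.85%), so few directly adjoined one. Beyond 100 kb there were 10 (1.78%). Narrower unshared peaks had a median of 7298 bp, and 3.83% of them lay beyond 100 kb. Width and distance were hardly related, with a Spearman rho of 0.051 over the 561 peaks.

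**Figure D2:**
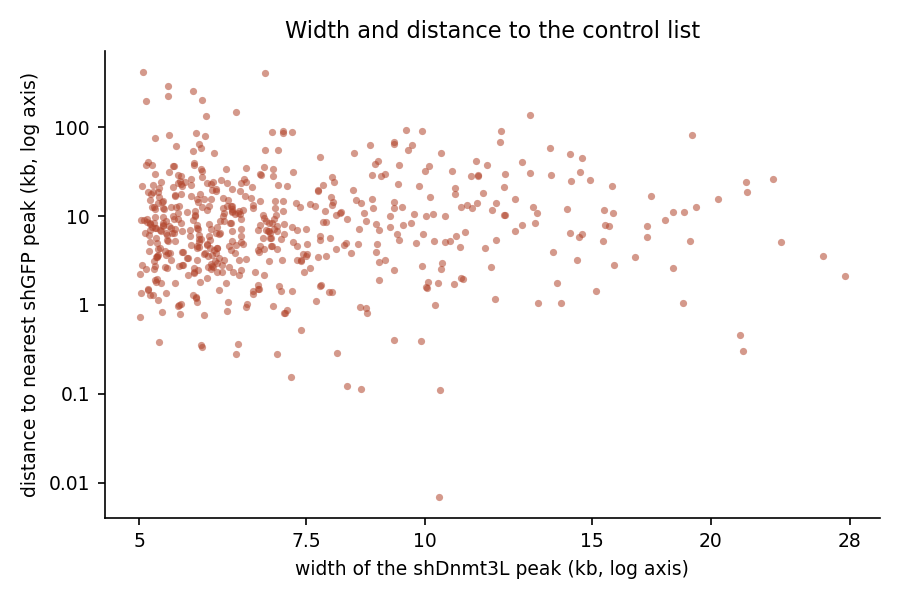
Width of each of the 561 peaks in kb against its distance to the nearest shGFP peak in kb, both axes on a log scale. The points run from 5008 to 27658 bp in width and from 7 to 417529 bp in distance with no visible trend.

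The 5 peaks farthest from the control were 5042 to 6783 bp wide and carry no gene name here. They were chr3:158221440-158226481 (5042 bp, 417529 bp away), chr8:105306398-105313180 (6783 bp, 409782 bp), chr9:87631039-87636401 (5363 bp, 293578 bp), chr16:85898189-85903889 (5701 bp, 256693 bp) and chr11:92959456-92964818 (5363 bp, 221946 bp). The 5 nearest lay 7 to 153 bp from a shGFP peak. The closest, chr10:42348286-42358625, was 10340 bp wide, and Tfap2c, a factor of germ cells and trophoblast, had a peak of 10358 bp at 112 bp. All 5 of the nearest were wider than the widest of the 5 farthest.

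Each of the 561 lay in an interval between 2 shGFP peaks. The median interval was 44.2 kb (quartiles 25.9 and 84.1 kb), of which the peak filled a median of 16.3%, and 35 peaks (6.24%) filled at least 50%. The 561 peaks fell into 506 such intervals, and 40 intervals held more than 1 of them, up to 7.

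The control peaks next to them were close in size to the whole control list. The 520 distinct nearest shGFP peaks had a median width of 2055 bp and a median score of 98.55, against 1998 bp and 96.27 for all shGFP peaks. Of these 520, 81.5% (78.0 to 84.6%) overlapped some shDnmt3L peak, against 74.5% of all shGFP peaks.

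The surroundings held more shDnmt3L than shGFP coverage. Within 50 kb on either side the 561 peaks had on average 17.5 kb under shDnmt3L peaks and 10.4 kb under shGFP peaks, and 425 of them (75.8%) had more shDnmt3L coverage. For the wide peaks with a control overlap the averages were 23.9 kb and 20.5 kb, and 66.9% had more of it from shDnmt3L. They were 13.3 and 10.7 kb (62.2%) for the narrower unshared peaks and 13.7 and 12.4 kb (53.5%) for all shDnmt3L peaks. By number the flanks of the 561 were nearer to even, with means of 5.08 shDnmt3L and 4.74 shGFP peaks. More shDnmt3L than shGFP peaks were found for 41.2% of the 561, and fewer for 32.3%. Of the 2852 shDnmt3L peaks counted in the flanks of the 561, 26.7% had no control overlap themselves, against 11.5% around the wide shared peaks and 17.5% around the narrower unshared peaks. A flank peak can be counted for more than 1 of the 561. Flank peaks also include others of the 561, which lack a control overlap by the choice. The 26.7%, the 75.8%, the 41.2% and the excess of shDnmt3L coverage are therefore in part set by the choice. A shGFP peak that touched a peak itself was left out of that peak's flanks. This lowered shGFP coverage around peaks with a control overlap, so the classes were not measured alike.

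Coverage just outside the edges was also compared. From 0 to 5 kb outside the 561 peaks, 21.3% of positions were under a shDnmt3L peak and 7.02% under a shGFP peak, and from 50 to 100 kb these were 13.1% and 10.1%. Around the wide shared peaks the values were 23.5% and 20.4% from 0 to 5 kb, and 20.6% and 18.2% from 50 to 100 kb. Since the 561 were chosen to exclude shGFP overlap, the low shGFP value at their edge is in part set by the choice. Another shDnmt3L peak lay within 1 kb of 157 of them, and for 102 of these 157 (65.0%) that neighbour had no control overlap either. For 30 of the 157 the neighbour was itself among the 561, and so lacked overlap by the choice.

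**Figure D3:**
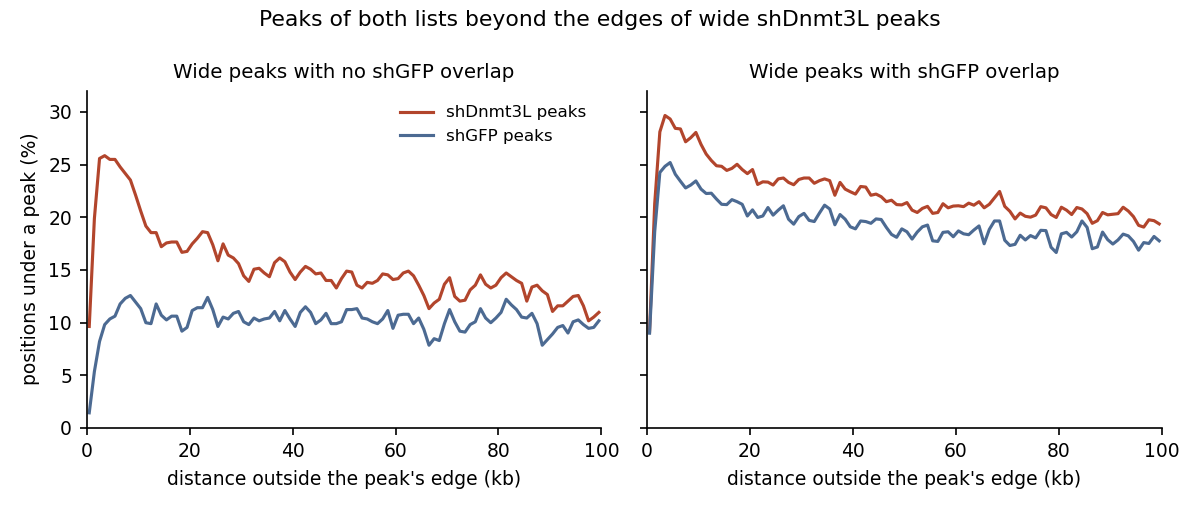
Percentage of positions under a shDnmt3L or a shGFP peak at each distance in kb outside the peak's edge, for the 561 wide peaks without control overlap (left) and the 1802 with it (right). On the left the curves are 21.3% and 7.02% on average from 0 to 5 kb and 13.1% and 10.1% from 50 to 100 kb.

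Wide unshared peaks also stood near each other. Of the 561, 159 (28.3%, 24.8 to 32.2%) had another of the 561 within 100 kb. Of the wide shared peaks, 14.8% (13.3 to 16.5%) had a peak of the 561 within 100 kb. So did 669 of the 5163 narrower unshared peaks. How many wide shared peaks lay near another wide shared peak was not computed, so these shares do not compare clustering within each class. With any other wide shDnmt3L peak counted, the order was the reverse: 49.7% (45.6 to 53.9%) of the 561 had one within 100 kb, against 61.9% (59.6 to 64.1%) of the wide shared peaks. Joined at 100 kb, they formed 469 groups, of which 402 held 1 peak, 55 held 2 and 12 held 3 or more. Inside the 67 groups of 2 or more the median gap was 6916 bp, and 18 of 92 gaps were 1 kb or less. In 33 of the 67 the span held no shGFP peak. The 561 overlap none by the choice, so this number is in part set by it. Of the 104 peaks of 10 kb or more, 45 (43.3%) had another of the 561 within 100 kb. Of the 457 below 10 kb, 114 (24.9%) did.

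The Hox clusters, whose genes set position along the body axis, held both groups of 7 wide peaks, the largest number. At HoxC, chr15:102763255-102893855, 7 peaks filled 81.8 of 130.6 kb, and the span held 13 shDnmt3L and 2 shGFP peaks. Adjacent peaks at Hoxc11 and Hoxc10 (19016 bp) and at Hoxc9 and Hoxc8 (21791 bp) were almost joined. At HoxD and Evx2, chr2:74491173-74593421, 7 peaks filled 77.7% of 102.2 kb, with 9 shDnmt3L and 0 shGFP peaks. The nearest shGFP peak to the Hoxd11, Hoxd10 and Hoxd9 peak was 82064 bp away. At HoxA and Evx1, chr6:52109877-52274641, 4 peaks filled 47.0 of 164.8 kb. Here a further very wide shDnmt3L peak between them held 1 of the 2 shGFP peaks and so is not among the 561. At the Hoxb13 end of HoxB, chr11:96031666-96068550, 3 peaks filled 33.3 of 36.9 kb, with 0 shGFP peaks. The counts of 0 here and at HoxD are in part set by the choice, since the chosen peaks overlap no shGFP peak.

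**Figure D4:**
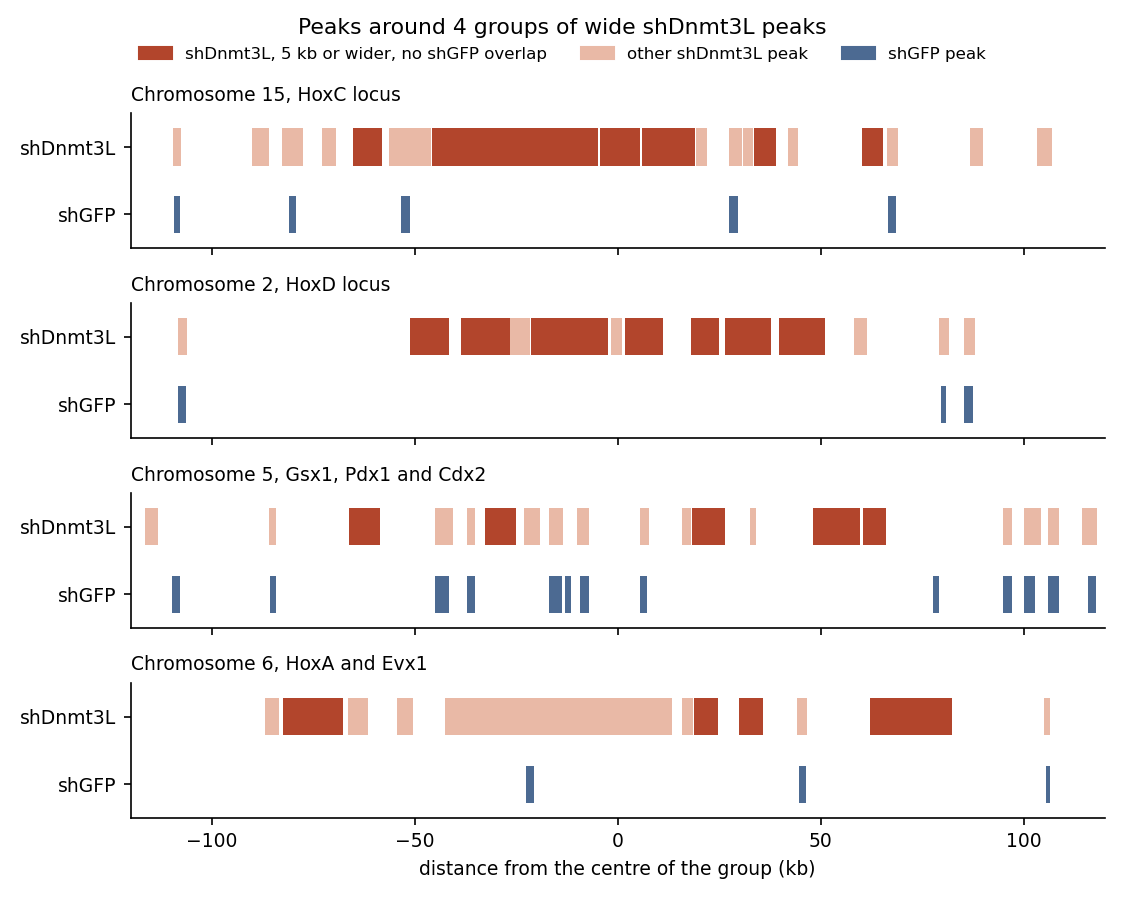
Peaks of each list around 4 groups of wide unshared peaks (HoxA is 1 of 3 groups tied at 4 peaks), by distance in kb from the centre of the group. The HoxD span holds 9 shDnmt3L and 0 shGFP peaks, and the HoxC span 13 and 2. The wide unshared peaks overlap no shGFP peak by the choice.

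Among the other groups with the most peaks, gene surroundings and control peaks varied. The ParaHox genes Gsx1, Pdx1 and Cdx2, factors of brain, pancreas and gut, had 5 peaks in 132.3 kb at chr5:147997046-148129352, with 13 shDnmt3L and 6 shGFP peaks in the span. Wnt10b, Wnt1 and Dhh had 4 peaks in 125.0 kb, with 10 and 7. Nr2f2, a nuclear receptor of vessels and atria, had 4 peaks in 42.5 kb, with 6 and 0. Six3 and Six2, a group named for its summed width and not its number of peaks, had 2 peaks in 88.5 kb, with 7 and 4. A group with no gene name here, chr15:93342506-93364419, had 3 peaks filling 20.4 of 21.9 kb with 0 shGFP peaks. Another without a name, chr8:47234116-47384087, had 3 peaks covering 19.7 kb, with 10 shDnmt3L and 8 shGFP peaks. Spans with and without control peaks were thus both found among the groups. Where the chosen peaks filled most of a span, its lack of control peaks is in part set by the choice.

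The 561 peaks lay on all 19 autosomes and on none of X, Y and M, where 5, 5 and 1 wide shDnmt3L peaks were found; 0 of 561 allows a share of up to 0.535% by a limit of 3 counts, or 0.680% by the Wilson interval. Chromosome 2 held 68 (12.1%), though 7.07% of the shDnmt3L list. Chromosome 8 held 46 (8.20%), though 10.9% of the shDnmt3L list. It held 514 of the 2363 wide peaks (21.8%), and the 46 were 8.95% of these (6.78 to 11.7%). On other chromosomes 27.9% (25.9 to 29.9%) of the 1849 wide peaks were unshared. Among narrower peaks the shares were 10.6% on chromosome 8 and 12.1% elsewhere. On chromosome 8, 2 of the 46 were 10 kb or more, against 102 of 515 elsewhere.

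**Figure D5:**
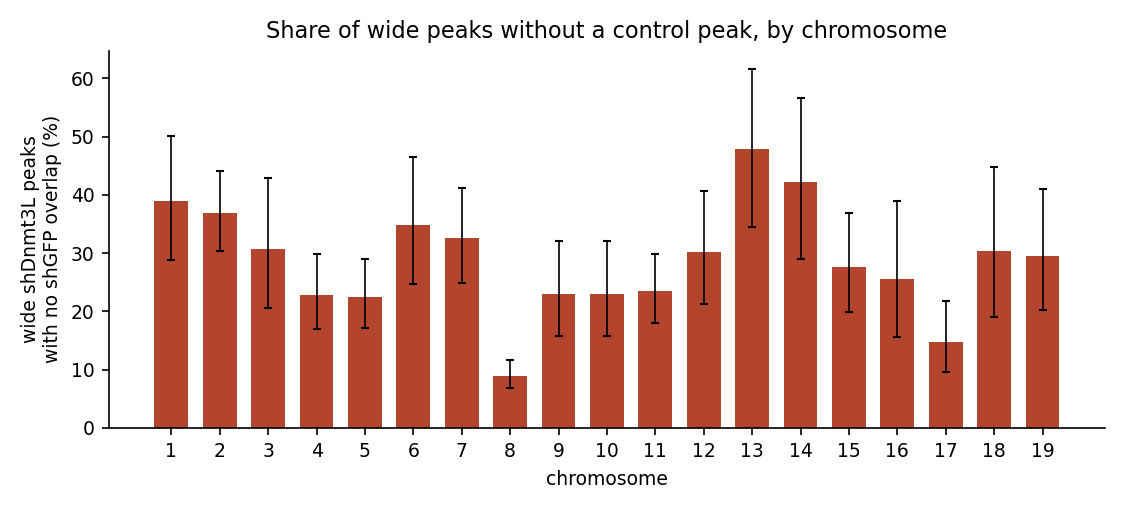
Share of wide shDnmt3L peaks that overlap no shGFP peak, by chromosome, with Wilson 95% intervals. Chromosome 8 is lowest among the autosomes at 8.95%, and chromosome 13 highest at 47.9%.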

How the data were processed

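Each of 2 libraries of E14 cells, shDnmt3L and shGFP (1 per group), was represented by a peak list that the authors deposited, with a position and a score per peak. Build mm9 is named in the submitters' processing notes, as are MACS 1.4.1, Bowtie 0.12.7 and CASAVA 1.8, all without roles. The deposited score is the authors' peak caller's value and was used only to describe and rank peaks within a list, except for a minimum of 100 tried on both. The sources used here do not give read depth, an input control or duplicate handling, and peak number and width can move with them.

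Python 3.11.15, numpy 2.4.6, pandas 2.3.3, scipy 1.17.1 and matplotlib 3.10.9 were used. Coordinates are 1-based. Overlap meant at least 1 bp, flanks were 50 kb on either side, and groups joined peaks within 100 kb. Shares carry Wilson and numbers exact Poisson 95% intervals. With 1 library per group no test was made. The code was tested on simulated data.

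Named regions were the 10 widest, the 10 of highest score, the 10 groups of largest summed width and of most peaks, the 5 farthest from and nearest to shGFP peaks, and the 5 on each side of the width limit. Shh, Dll1, Igf2, Pou3f2, Pax3, Pax6 and Pax9 were named after their values were seen. The peaks and lists were chosen with earlier results of these data known. Gene names rest on general knowledge of the mm9 map; recalled positions had also been compared with the GRCm38 table. Names noted as leaning on that comparison, and a pair recalled in the wrong order, were removed, so the order count given in the text follows this removal. No coordinates were converted. The rule also took a region whose gene is not reported here.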

Additional observations from a re-analysis of the deposited data

How the results depend on the processing

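Of 64 values recomputed under other settings, 42 were counted as unmoved and 22 as moved. Reversal of direction was not assessed. A number counted as unmoved within 1.5 times the reported one, and a share or median within its 95% interval. With a minimum width of 4000 bp there were 1011 peaks in 824 groups, 20.2% of the wide peaks, and 32.4% had another within 100 kb. With 10000 bp there were 104 peaks in 92 groups, 42.6% of the wide peaks, with a median distance of 10159 bp to shGFP, 20.2% near another and 1.92% on chromosome 8. With a minimum score of 100 in each list there were 790 peaks, above the Poisson interval but within 1.5 times; the share was 33.5%, the median distance 12993 bp and the median number of shGFP peaks in the flanks 2. With lists of equal length there were 613 peaks, and these values were 25.9%, 8573 bp and 3. Merging peaks within 500 bp gave 17.1%, and leaving out chromosome 8 gave 27.9%. Joining within 50 or 250 kb put 22.6% or 36.4% of peaks near another, and flanks of 20 or 100 kb held a median of 2 or 9 shGFP peaks. Leaving out the groups at Hox clusters, an alternative chosen after seeing the data, left 538 peaks, 25.3% of them near another.

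No paired analysis was possible because both groups consist of 1 library. The planned count over a list of loci, and its version with 10 kb around each, were left out for lack of an mm9 annotation. Depth is unknown, so its part in widths and missing overlaps was not tested.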
